A study of Mus musculus with 6 samples.

Results

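Genes that mark alpha beta T cells, regulatory T cells, natural killer (NK) cells, innate lymphoid cells and B cells were followed in whole mouse skin on day 2 of a DPCP treatment. The list held 45 genes named by symbol, out of 55487 in the count table, and all 45 were found there. Genes of the CD3 chains and of the gamma delta T cell receptor, which the resident T cells of mouse epidermis carry, were left off the list. The treated group was dorsal skin treated with DPCP, or diphenylcyclopropenone (a chemical that sensitizes skin on contact and then causes an allergic dermatitis), with 3 libraries. The control group was dorsal skin labelled only as control, with 3 libraries, and the labels do not say what that skin received. Strain, sex, age and genotype are not given by the labels for either group. By its title, the study is about the role of macrophages in the hair regrowth that follows such a reaction.

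A T cell reads antigen through a receptor of paired chains, which signals through the kinases Lck and Zap70 and the adaptor Lat, and the coreceptors CD4 and CD8 set which antigen-presenting molecule it sees. NK cells and cytotoxic T cells kill by releasing granules in which perforin opens a path into the target cell for the granzymes. B cells carry an immunoglobulin receptor that signals through CD79A and CD79B, and plasma cells secrete it. In contact hypersensitivity, T cells primed in the lymph node enter the skin on re-exposure to the sensitizer.

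The receptor beta chain has a pair of nearly identical constant region genes, Trbc1 and Trbc2, which lie next to each other on chromosome 6. A stretch of both is shown because the separate counting of the 2 genes rests on the bases that differ. From their 5′ ends, 520 bases of the transcripts were compared, up to the first 10-base window with over 5 differing bases, and 23 of the 520 differed (95.6% identical). The first 259 bases were identical. The stretch covers positions 361 to 440 of each transcript in the GENCODE M21 set, with its 8 differing bases in capitals.
Trbc1: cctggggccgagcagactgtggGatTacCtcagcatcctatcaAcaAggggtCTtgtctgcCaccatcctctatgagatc
Trbc2: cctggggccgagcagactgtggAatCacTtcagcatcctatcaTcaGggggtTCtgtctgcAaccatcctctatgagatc
Of the possible 150-base reads of Trbc1, 110 of 598 (18.4%) also matched Trbc2 in full, and 110 of 543 (20.3%) of those of Trbc2 matched Trbc1. Reads aligned to several places were not counted, so the levels of both genes are uncertain.

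Promoters are shown for Prf1, Nkg7 and Zap70, the listed genes with the lowest log2 fold changes in DPCP skin, and for Gzmb, a granule gene called in the opposite direction. Each runs from 250 bases before a start given by RefSeq to 50 after it, on GRCm38.p6. Such a start can differ from the gene positions given below, and the Gzmb window lies wholly upstream of the position given for Gzmb. Prf1 lies at chr10:61297586-61297885 on the plus strand, Nkg7 at chr7:43436888-43437187 on the plus strand, Zap70 at chr1:36761548-36761847 on the plus strand and Gzmb at chr14:56262285-56262584 on the minus strand. Capitals mark matches, on either strand, to the letters AGGAAG (bound by ETS factors), TGTGGT (RUNX), AGGTGTGA (T-box) and TGANTCA (AP-1).
Prf1: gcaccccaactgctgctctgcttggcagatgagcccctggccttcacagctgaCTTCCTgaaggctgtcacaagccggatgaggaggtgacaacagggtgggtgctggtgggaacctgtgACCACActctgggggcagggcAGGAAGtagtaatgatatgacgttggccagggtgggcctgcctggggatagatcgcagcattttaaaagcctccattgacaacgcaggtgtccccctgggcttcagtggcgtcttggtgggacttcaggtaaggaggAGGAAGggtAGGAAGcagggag
Nkg7: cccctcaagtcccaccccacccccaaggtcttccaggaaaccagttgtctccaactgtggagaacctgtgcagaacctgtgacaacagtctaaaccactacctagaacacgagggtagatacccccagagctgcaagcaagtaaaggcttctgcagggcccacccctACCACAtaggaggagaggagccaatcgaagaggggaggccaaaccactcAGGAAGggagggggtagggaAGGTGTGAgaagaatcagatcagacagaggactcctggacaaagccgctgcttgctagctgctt
Zap70: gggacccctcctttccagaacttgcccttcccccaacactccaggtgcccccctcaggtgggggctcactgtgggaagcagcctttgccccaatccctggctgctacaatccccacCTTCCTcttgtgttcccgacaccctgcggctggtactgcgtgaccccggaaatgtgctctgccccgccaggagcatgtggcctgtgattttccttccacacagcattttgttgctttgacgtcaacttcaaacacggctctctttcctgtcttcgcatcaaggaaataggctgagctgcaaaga
Gzmb: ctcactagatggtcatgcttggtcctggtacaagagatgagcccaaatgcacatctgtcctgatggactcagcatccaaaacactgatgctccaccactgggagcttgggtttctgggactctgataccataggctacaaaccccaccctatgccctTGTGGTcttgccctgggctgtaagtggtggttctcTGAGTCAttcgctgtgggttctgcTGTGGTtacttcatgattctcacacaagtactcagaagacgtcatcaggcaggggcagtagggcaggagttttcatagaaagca
Prf1 held 4 ETS matches and 1 RUNX match, Nkg7 held 1 ETS, 1 RUNX and 1 T-box match, and Zap70 held 1 ETS match. Gzmb held 2 RUNX matches and 1 AP-1 match. Among the 27 listed genes with a promoter in the table, 13 held the ETS letters, 11 the RUNX letters, 1 the T-box letters and 2 the AP-1 letters. In all 32851 promoter windows these letters occurred in 35.4%, 16.8%, 1.28% and 7.81%, in the same order. A match is a description of the letters and was not tested as a binding site.

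The DPCP libraries held 31609336 to 38846787 counts and the control libraries 28346992 to 33468828. Levels are CPM, reads of the gene per fixed number of reads in the library, after scaling by TMM factors, and values by library are given in the order of replicates 1, 2 and 3. A level of 3 counts, the limit that a count of 0 allows if counts are independent, was 0.0821 to 0.0966 CPM in the DPCP libraries. In the control libraries it was 0.0895 to 0.102 CPM, and this covers counting error only. Mates of a read pair were counted singly, so counts were not independent and the true limit is higher. Skin was checked by 4 genes of basal keratinocytes, whose summed level was 23944 to 27779 CPM in DPCP skin and 12504 to 14805 CPM in control skin. Most of that difference was Krt14, which was higher (log2 fold change 1.87), while Krt15 (-1.77) and Col17a1 (-0.47) were lower and Krt5 (0.34) was not called. Mitochondrial genes took 3.41% to 3.49% of the counts in DPCP and 3.96% to 4.07% in control libraries, and ribosomal RNA genes 0.420% to 2.46% and 0.167% to 0.285% in the same order, highest in DPCP replicate 2, and the part of these shares in the results was not tested. Nothing in the labels says that replicates were separate animals, so p-values reflect the spread among these samples only, and that spread may be technical. In bulk skin, fewer cells of a type and less RNA per cell cannot be told apart.

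Lymphocyte genes did not move as one group in DPCP skin. Of the 45 genes, 36 passed the filter on low counts, and of these 5 were higher, 11 were lower and 20 were not called by edgeR's quasi-likelihood test at an adjusted p under 0.05. The share called was 44.4% (13.9% higher, 30.6% lower), against 46.1% of all 18259 tested genes (22.8% higher, 23.3% lower), which is near the background. The groups did not overlap in 17 of the 36 (6 with DPCP above, 11 with DPCP below), where 58.0% of all tested genes did not overlap (28.6% above, 29.4% below). The median log2 fold change of the 36 was -0.19, beside -0.01 over all tested genes. The higher genes were Cd4, Cd5, Cd6, Gzmb and Cd22, and the lower ones were Trbc1, Trbc2, Cd2, Cd7, Zap70, Il2rb, Il18r1, Ncr1, Prf1, Nkg7 and Ighm. DPCP replicate 3 was the lowest of its group in 21 of the 36 genes and in 10 of the 11 called lower, and control replicate 3 was the lowest of its group in 21 and 6 of them.

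**Figure D1:**
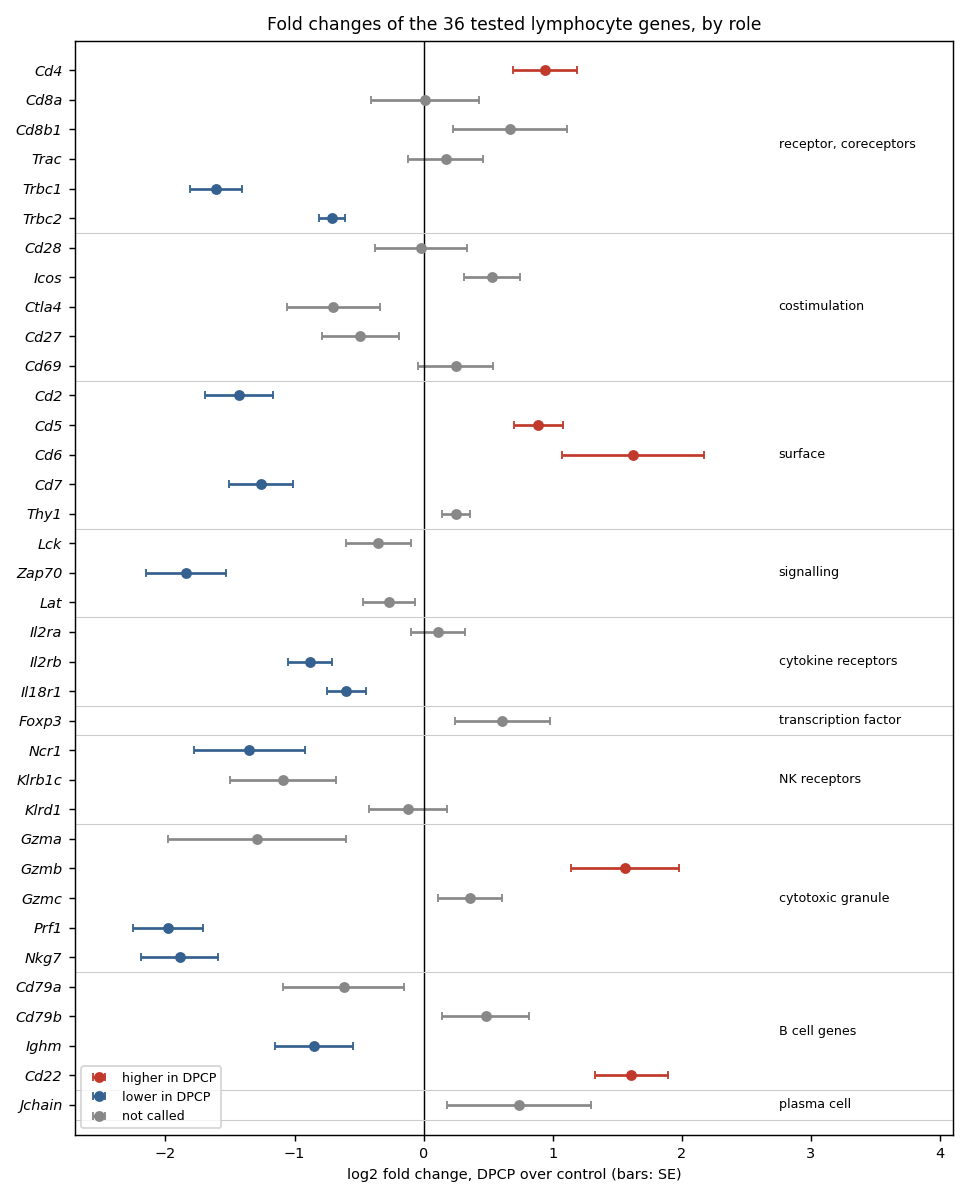
Log2 fold change (DPCP over control) of the 36 tested lymphocyte genes, with bars for the standard error and colours for the call. The 5 genes called higher lie between 0.89 and 1.62, and the 11 called lower between -1.98 and -0.60.

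The receptor chains and coreceptors of alpha beta T cells went different ways. Cd4 (chromosome 6, 124864692 to 124888221), the coreceptor of helper T cells, measured 13.7, 12.2 and 7.09 CPM in the DPCP libraries and 5.65, 6.63 and 4.92 CPM in the control libraries. Every DPCP library was above every control library, though DPCP replicate 3 was close to the control range. The mean was 11 ± 3.48 CPM in DPCP skin and 5.74 ± 0.857 CPM in control skin (SD, n = 3 each), a log2 fold change of 0.94 ± 0.25 (SE; adjusted p = 0.0137, edgeR). The CD3 epsilon gene Cd3e was lower in the same libraries, with a log2 fold change of -2.14 ± 0.29. Whether the Cd4 reads came from helper T cells or from other cells was not tested. Cd8a and Cd8b1, the chains of the cytotoxic coreceptor, were low in both groups. Cd8a measured 0.577, 0.766 and 0.354 CPM in DPCP skin and 0.647, 0.700 and 0.358 CPM in control skin, with overlapping groups and a log2 fold change of 0.01 ± 0.42 (adjusted p = 0.982). Cd8b1 measured 0.404 to 0.574 CPM in DPCP skin and 0.200 to 0.443 CPM in control skin and gave a log2 fold change of 0.67 ± 0.44 (adjusted p = 0.234), and its groups also overlapped. Counts of Cd8a over those of Cd4 were 0.0420, 0.0628 and 0.05 in DPCP skin and 0.114, 0.106 and 0.0727 in control skin, so the DPCP libraries had the lower ratios.

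Trbc1 (chromosome 6, 41538218 to 41539881), whose sequence is given above beside that of its neighbour, measured 3.15, 2.43 and 2.19 CPM in DPCP skin against 9.57, 7.20 and 7.04 CPM in control skin. The groups were well apart, with means of 2.59 ± 0.497 CPM in DPCP skin and 7.94 ± 1.42 CPM in control skin (SD, n = 3 each), a log2 fold change of -1.61 ± 0.20 (adjusted p = 0.000424). Trbc2 (41546730 to 41548352) also fell, with 21.7, 18.4 and 19.8 CPM in DPCP skin, against 33.6, 31.6 and 32.8 CPM in control skin, and -0.71 ± 0.10 on the log2 scale (adjusted p = 0.000560). Its libraries lay close together within each group and did not overlap between groups. The ratio of Trbc1 to Trbc2 counts was 0.145, 0.133 and 0.110 in DPCP skin and 0.284, 0.228 and 0.215 in control skin, again without overlap, and the difference between the genes was not tested beyond these ratios. Trac, the constant region of the alpha chain, was not called. It measured 1.41, 1.70 and 2.06 CPM in DPCP skin and 2.11, 1.27 and 1.22 CPM in control skin, with overlapping groups and a log2 fold change of 0.17 ± 0.29 (adjusted p = 0.660). Per Trbc2 count there were 0.0651, 0.0924 and 0.104 Trac counts in DPCP skin and 0.0628, 0.0400 and 0.0373 in control skin, and the DPCP libraries were all above the control libraries, by little for DPCP replicate 1. Per count of the CD3 epsilon gene Cd3e there were 0.700, 0.954 and 2.46 Trac counts in DPCP skin and 0.273, 0.193 and 0.194 in control skin. The summed level of the 6 receptor and coreceptor genes was 32.0 to 41.0 CPM in DPCP skin and 46.6 to 52.1 CPM in control skin, and Trbc2 gave the most of the 6 in each library. Which T cells gave the Trbc1 and Trbc2 reads was not tested.

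**Figure D2:**
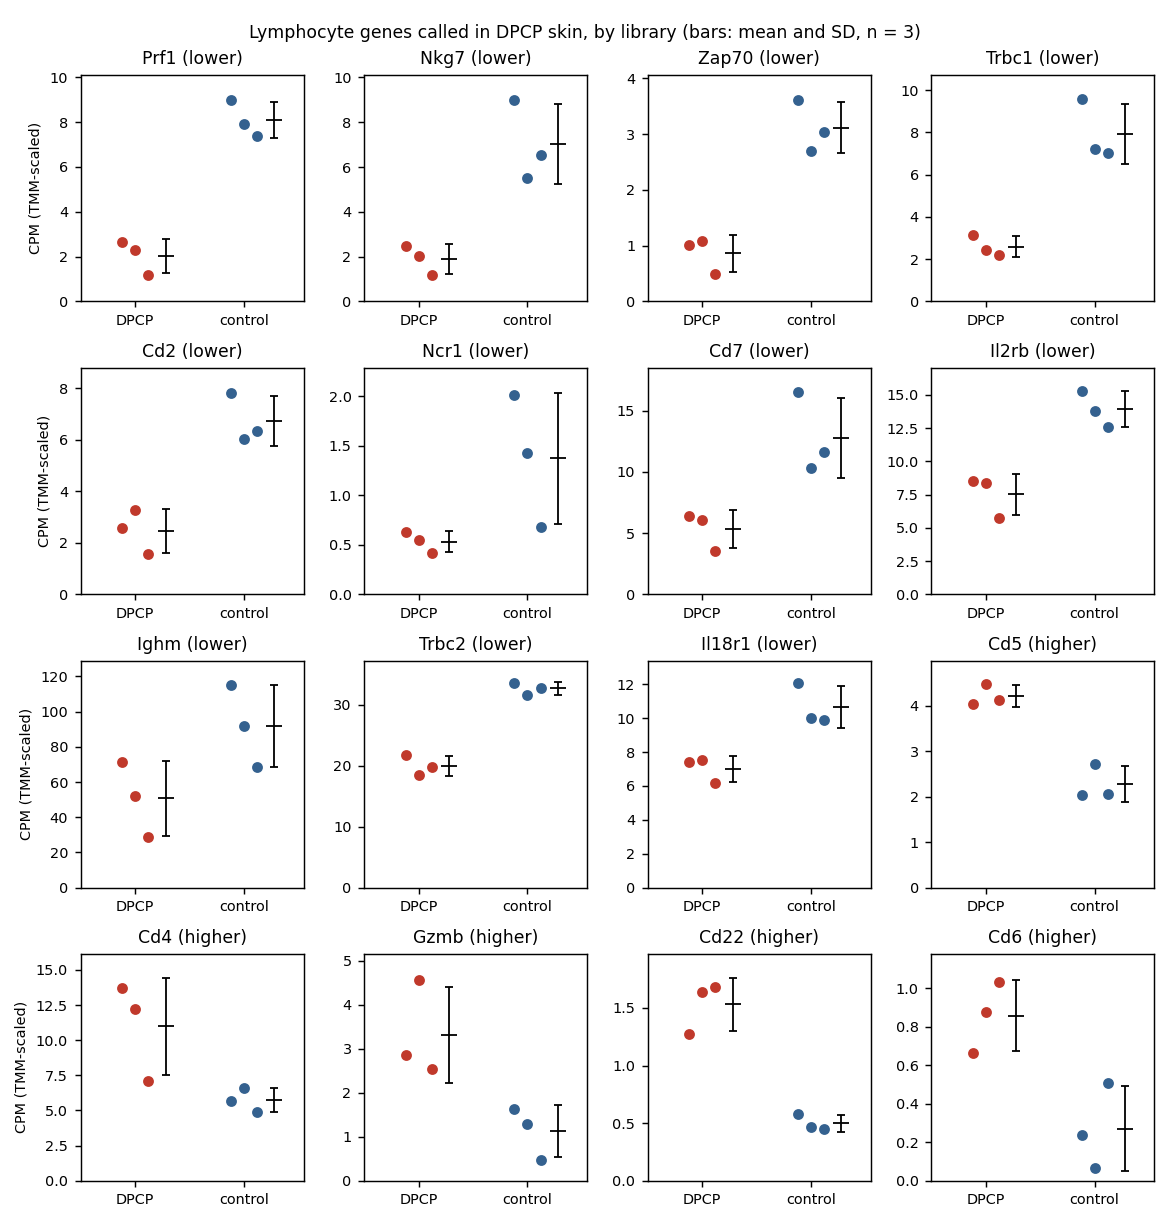
CPM (linear scale from 0) of the 16 called lymphocyte genes, 1 panel each, with points for the 3 DPCP libraries (left) and the 3 control libraries (right) and bars for mean and SD. Ighm is the only one of the 16 whose groups overlap, and Prf1, Nkg7, Zap70 and Trbc1 are among those with the widest gaps.

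The surface molecules shared by T and NK cells were divided. Cd5 and Cd6, related surface proteins that modulate T cell receptor signalling and lie near each other on chromosome 19, were higher in DPCP skin. Cd5 measured 4.04, 4.49 and 4.12 CPM in DPCP skin and 2.04, 2.73 and 2.06 CPM in control skin, a log2 fold change of 0.89 ± 0.19 (adjusted p = 0.00536). The 3 DPCP libraries lay within a narrow range above all control libraries. Cd6 had far fewer reads, with 23, 32 and 32 counts in DPCP skin and 7, 2 and 17 in control skin. Its log2 fold change was 1.62 ± 0.55 (adjusted p = 0.0397), and the groups did not overlap. That call was lost without DPCP replicate 2 (adjusted p = 0.0871), DPCP replicate 3 (0.107), control replicate 1 (0.108) or control replicate 2 (0.0803), with log2 fold changes of 1.6, 1.48, 1.54 and 1.18 in that order, and without control replicate 3 the log2 fold change was 2.46.

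Cd2 and Cd7 moved the other way. Cd2, an adhesion receptor of T and NK cells, measured 2.57, 3.28 and 1.58 CPM in DPCP skin and 7.83, 6.03 and 6.33 CPM in control skin. The highest DPCP library was well under the lowest control library, and the log2 fold change was -1.43 ± 0.26 (adjusted p = 0.00248). Cd7, found on T and NK cells, measured 6.38, 6.07 and 3.58 CPM in DPCP skin and 16.5, 10.3 and 11.6 CPM in control skin, a log2 fold change of -1.26 ± 0.25 (adjusted p = 0.00424). Its groups were apart as well, but 10.8% of its exon bases were shared with the gene Gm11775, so its level is uncertain. Thy1 was the most abundant listed gene by CPM, at 161, 203 and 191 CPM in DPCP skin and 153, 168 and 147 CPM in control skin. These groups overlapped, and the log2 fold change of 0.25 ± 0.11 (adjusted p = 0.0872) was not called, although it was without DPCP replicate 1 (0.34, adjusted p = 0.0263). Thy1 is also expressed by fibroblasts and other skin cells, so its level is not that of T cells alone.

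Of the costimulation and activation receptors, no gene was called. Icos, the inducible costimulator, had 3.87, 3.06 and 2.58 CPM in DPCP skin and 1.91, 2.50 and 2.18 CPM in control skin. All DPCP libraries were above the control libraries, with a log2 fold change of 0.53 ± 0.22 and an adjusted p of 0.0801. Ctla4, the inhibitory receptor that is abundant on regulatory T cells, had 1.33, 1.37 and 0.580 CPM in DPCP skin and 1.87, 2.2 and 1.31 CPM in control skin (log2 fold change -0.70 ± 0.36, adjusted p = 0.142). The groups overlapped for Ctla4 alone, but its ratio to Icos counts, at 0.343, 0.446 and 0.225 in DPCP skin and 0.982, 0.880 and 0.603 in control skin, did not overlap. Cd28, the main costimulatory receptor, measured 1.37 to 2.48 CPM in DPCP skin and 1.04 to 2.33 CPM in control skin (log2 fold change -0.02 ± 0.36, adjusted p = 0.970). Cd27, a receptor of the TNF family, measured 0.606 to 0.985 CPM in DPCP skin and 0.985 to 1.36 CPM in control skin (-0.49 ± 0.30, adjusted p = 0.214), and its groups met at 0.985 CPM. The early activation marker Cd69 measured 1.13 to 1.91 CPM in DPCP skin and 1.20 to 1.74 CPM in control skin (0.25 ± 0.29, adjusted p = 0.516), with overlap. Foxp3, the factor that defines regulatory T cells, measured 0.693, 1.26 and 1.68 CPM in DPCP skin and 0.715, 0.966 and 0.686 CPM in control skin, with overlapping groups and a log2 fold change of 0.61 ± 0.37 (adjusted p = 0.208). Its level is uncertain, since 31.5% of its exon bases were shared with other genes, Ccdc22 and Ppp1r3f among them.

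Of the 3 proximal signalling genes, the kinase Zap70 fell. Zap70 (chromosome 1, 36761798 to 36782818) measured 1.01, 1.09 and 0.483 CPM in DPCP skin, against 3.61, 2.70 and 3.04 CPM in control skin. No library of one group came near the other, and the means of 0.863 ± 0.331 CPM in DPCP skin and 3.12 ± 0.460 CPM in control skin (SD, n = 3 each) gave a log2 fold change of -1.84 ± 0.31 (adjusted p = 0.00173). Lck, the kinase that acts just before it, measured 3.77 to 4.30 CPM in DPCP skin and 3.53 to 7.02 CPM in control skin (-0.35 ± 0.25, adjusted p = 0.275). The adaptor Lat, which Zap70 phosphorylates, measured 2.45 to 2.89 CPM in DPCP skin and 2.77 to 3.92 CPM in control skin (-0.27 ± 0.20, adjusted p = 0.300). Both overlapped between groups and neither was called.

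Cytokine receptor chains of T and NK cells were lower or not called. Il2rb, the signalling chain shared by the interleukin 2 and 15 receptors, measured 8.49, 8.34 and 5.77 CPM in DPCP skin and 15.3, 13.8 and 12.6 CPM in control skin, a log2 fold change of -0.88 ± 0.17 (adjusted p = 0.00355). Il18r1, the chain that binds interleukin 18, measured 7.39, 7.52 and 6.15 CPM in DPCP skin and 12.1, 10 and 9.91 CPM in control skin, a log2 fold change of -0.60 ± 0.15 (adjusted p = 0.0105). Neither gene overlapped between groups. Il2ra, the alpha chain that gives the interleukin 2 receptor high affinity, measured 2.32 to 3.32 CPM in DPCP skin and 2.42 to 3.07 CPM in control skin (log2 fold change 0.11 ± 0.21, adjusted p = 0.707), and its groups overlapped.

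The cytotoxic granule genes held both the lowest fold change and one of the highest among the listed genes. Prf1 (chromosome 10, 61297833 to 61304680), which encodes perforin, measured 2.63, 2.30 and 1.19 CPM in DPCP skin, against 8.99, 7.90 and 7.4 CPM in control skin. All DPCP libraries were far under the control libraries, with means of 2.04 ± 0.752 CPM in DPCP skin and 8.10 ± 0.814 CPM in control skin (SD, n = 3 each) and a log2 fold change of -1.98 ± 0.27 (adjusted p = 0.000583). Nkg7 (chromosome 7, 43437073 to 43438249), a granule membrane protein that takes part in granule release, measured 2.48, 2.02 and 1.16 CPM in DPCP skin and 8.99, 5.53 and 6.54 CPM in control skin. Its log2 fold change was -1.89 ± 0.30 (adjusted p = 0.00122), and its groups were as clearly apart. Gzmb (chromosome 14, 56258838 to 56262260), granzyme B, went the opposite way, with 2.86, 4.57 and 2.54 CPM in DPCP skin and 1.63, 1.30 and 0.477 CPM in control skin. Every DPCP library was above every control library, and the log2 fold change was 1.56 ± 0.42 (adjusted p = 0.0153), but without DPCP replicate 2 it was 1.25 and not called (adjusted p = 0.0587). Prf1 counts per Gzmb count were 0.919, 0.503 and 0.468 in DPCP skin and 5.50, 6.08 and 15.5 in control skin. Counts of perforin were thus fewer than those of granzyme B in each DPCP library and more in each control library, as counts that are not scaled for length.

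Gzma, granzyme A, varied widely within both groups. It measured 1.33, 1.45 and 0.419 CPM in DPCP skin and 3.85, 3.60 and 0.477 CPM in control skin, so DPCP replicate 3 and control replicate 3 were both low and the groups overlapped. Its log2 fold change of -1.29 ± 0.69 was not called (adjusted p = 0.160), but it was called without control replicate 3 (-1.79, adjusted p = 0.0144), without the filter on low counts (-1.28, 0.0390) and with the replicate number as a block (-1.15, 0.0206). Gzmc, granzyme C, measured 8.20, 5.55 and 4.41 CPM in DPCP skin and 5.38, 5.17 and 3.67 CPM in control skin, with overlapping groups (log2 fold change 0.36 ± 0.25, adjusted p = 0.283). Per length, in TPM (counts divided by gene length and scaled to a fixed total), Gzmc was the highest of the 5 granule genes in DPCP skin at 17.1 ± 6.32 TPM (15.4 ± 3.27 TPM in control skin), and Nkg7 was the highest in control skin at 22.2 ± 5.35 TPM (5.16 ± 1.94 TPM in DPCP skin; SD, n = 3 each).

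**Figure D3:**
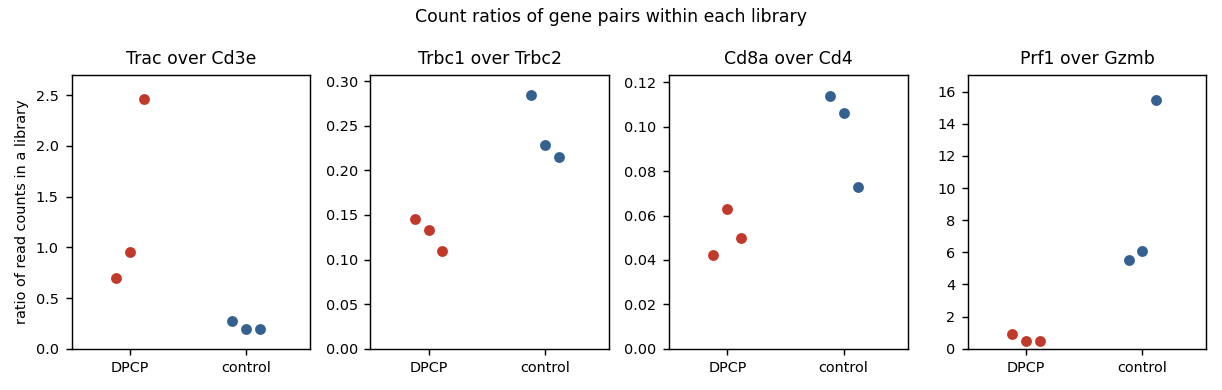
Ratios of read counts (linear scale from 0) for 4 pairs of genes, 1 panel each, with a point for each of the 3 DPCP libraries (left) and the 3 control libraries (right). For Prf1 over Gzmb the DPCP libraries sit between 0.468 and 0.919 and the control libraries between 5.50 and 15.5.

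Of the NK cell receptors, Ncr1 and Klrb1c were few in reads. Ncr1, the activating receptor NKp46, measured 0.635, 0.547 and 0.419 CPM in DPCP skin and 2.01, 1.43 and 0.686 CPM in control skin, a log2 fold change of -1.35 ± 0.43 (adjusted p = 0.0296). The groups did not overlap, but control replicate 3 was close to the DPCP range. This call was lost without DPCP replicate 2 (-1.37, adjusted p = 0.0720), DPCP replicate 3 (-1.20, 0.0889), control replicate 1 (-0.96, 0.121) or control replicate 2 (-1.30, 0.0771). Klrb1c, the receptor known as NK1.1, measured 0.404, 0.492 and 0.322 CPM in DPCP skin and 1.06, 1.10 and 0.477 CPM in control skin, and was not called (-1.09 ± 0.41, adjusted p = 0.0577), though it was without control replicate 3 (-1.39, adjusted p = 0.0213) and with library totals alone (-1.17, 0.0470). Its groups overlapped, and 13.9% of its exon bases were shared with the gene Gm44511. Klrd1, the CD94 chain that pairs with NKG2 receptors, measured 3 to 5.14 CPM in DPCP skin and 3.1 to 6.03 CPM in control skin, also overlapping (-0.12 ± 0.30, adjusted p = 0.780).

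Among B cell genes, 1 of the 4 tested was higher, 1 was lower and 2 were not called. Ighm (chromosome 12, 113418558 to 113422730), the constant region of IgM, measured 71.3, 52.3 and 28.5 CPM in DPCP skin and 115, 91.8 and 68.8 CPM in control skin. The libraries ran in a wide range and the highest DPCP library was above the lowest control library. The log2 fold change was -0.85 ± 0.30 (adjusted p = 0.0476), and DESeq2 did not call it (-0.84, adjusted p = 0.0898). Nor was it called without DPCP replicate 2 (-0.88, adjusted p = 0.0939), DPCP replicate 3 (-0.56, 0.0799), control replicate 1 (-0.65, 0.157) or control replicate 2 (-0.84, 0.108). The call held in the other 8 of 13 alternatives. Among these were the replicate block (-0.92, adjusted p = 0.000977), no count filter (-0.85, 0.00138) and leaving out DPCP replicate 1 (-1.18, 0.0123). Cd22, an inhibitory coreceptor of B cells, measured 1.27, 1.64 and 1.68 CPM in DPCP skin and 0.579, 0.467 and 0.448 CPM in control skin. All DPCP libraries were above all control libraries, with a log2 fold change of 1.61 ± 0.28 (adjusted p = 0.00202), and 9.50% of its exon bases were shared with the gene Gm29439. Whether the Cd22 reads came from B cells was not tested. The signalling chains of the B cell receptor were at most 1.29 CPM in every library. Cd79a measured 0.173, 0.219 and 0.322 CPM in DPCP skin and 0.477, 0.233 and 0.388 CPM in control skin (-0.62 ± 0.47, adjusted p = 0.300), and Cd79b measured 0.985 to 1.29 CPM in DPCP skin and 0.627 to 1.23 CPM in control skin (0.48 ± 0.34, adjusted p = 0.281). The groups overlapped for both. Jchain, which joins secreted IgM and IgA into polymers, measured 0.577, 2.38 and 1.22 CPM in DPCP skin and 1.40, 0.500 and 0.627 CPM in control skin (0.74 ± 0.56, adjusted p = 0.308), and its groups overlapped. Per length, Ighm stood at 67.3 ± 30.6 TPM in DPCP skin and 141 ± 35.9 TPM in control skin, while Cd79a stood at 0.412 ± 0.152 TPM and 0.725 ± 0.232 TPM in the same order (SD, n = 3 each).

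The other 9 genes had too few counts to be tested. No listed gene was at 0 in all 6 libraries, but Il17a and Il22 had no counts in any DPCP library. Il17a, the signature cytokine of type 17 lymphocytes, had 0, 0 and 0 counts in DPCP skin and 2, 0 and 8 in control skin. Il22, which acts on keratinocytes, had 0, 0 and 0 counts in DPCP skin and 0, 0 and 2 in control skin. Counts this low do not show a difference at this depth, and a count of 0 allows at least the 3 counts given above. Il17f had 0, 8 and 2 counts in DPCP skin and 2, 2 and 2 in control skin. Ifng, interferon gamma, had 13, 2 and 0 counts in DPCP skin and 2, 1 and 4 in control skin, so most of its DPCP reads came from replicate 1, and 25.9% of its exon bases were shared with the gene Gm49751. Summed over the 4 effector cytokines, the level was 0.0644 to 0.375 CPM in DPCP skin and 0.100 to 0.477 CPM in control skin.

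The factors Tbx21 and Eomes, which direct type 1 and cytotoxic lymphocytes, also had few counts. Tbx21 had 3, 11 and 6 counts in DPCP skin and 11, 10 and 4 in control skin. Eomes had 7, 5 and 6 counts in DPCP skin and 21, 17 and 2 in control skin. Both overlapped between groups. Ms4a1, the B cell surface protein CD20, had 6, 8 and 3 counts in DPCP skin and 8, 5 and 0 in control skin. Pax5, the factor that sets B cell identity, had 4, 8 and 4 counts in DPCP skin and 6, 6 and 3 in control skin. These defining B cell genes were thus at or near 0 in both groups. Mzb1, a plasma cell chaperone, had 7, 0 and 13 counts in DPCP skin and 8, 6 and 15 in control skin, and 57.2% of its exon bases were shared with the gene SPATA24.

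**Figure D4:**
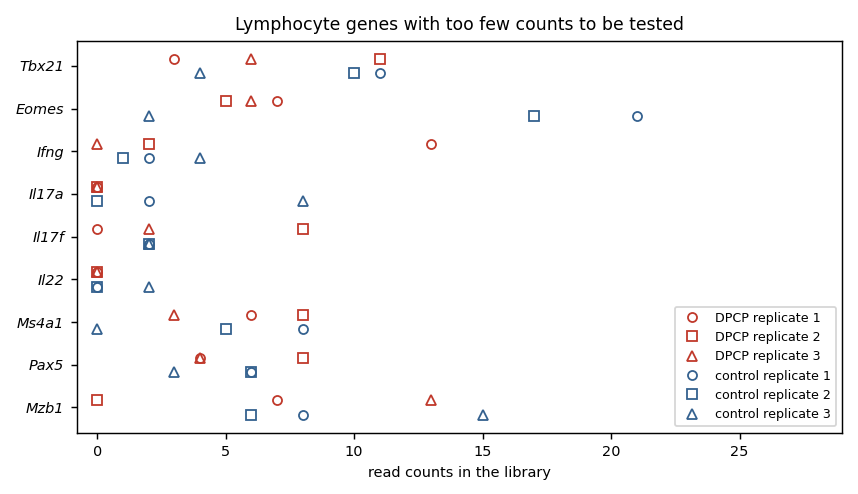
Counts (not normalised) of the 9 lymphocyte genes that were not tested, with red symbols for the 3 DPCP libraries, above blue symbols for the 3 control libraries. Il17a and Il22 are at 0 in the 3 DPCP libraries, and the highest count, 21, is that of Eomes in a control library.

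Other lymphocyte genes, 120 in 9 lists that do not overlap the 45, gave the surroundings of these values. Of the 97 tested, 18 were higher and 41 lower (60.8% called, beside 46.1% of all tested genes). By direction, 18.6% were higher and 42.3% lower, where 22.8% and 23.3% of all tested genes were. The same background shares apply to the counts by list that follow. All 10 genes of the CD3 chains and the gamma delta receptor were lower, their median log2 fold change was -2.03, and their summed level was 15.5 to 23.9 CPM in DPCP skin and 69.3 to 90.8 CPM in control skin. Of them, Trdv4, Cd247 and Trdc had the smallest p, with -2.36 ± 0.22, -1.92 ± 0.20 and -1.91 ± 0.20 on the log2 scale (SE). None of the 36 tested genes described above had a log2 fold change as low as that median, though Prf1 (-1.98), Nkg7 (-1.89) and Zap70 (-1.84) were near it. The part of gamma delta T cells in the values of the listed genes was not tested.

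Of 15 other tested genes of T cell receptor signalling, 3 were higher and 8 lower (median -0.73). The higher ones were Vav1 (1.19 ± 0.16), an exchange factor, and the adaptors Lcp2 (1.26 ± 0.24) and Fyb (0.80 ± 0.21), genes that myeloid cells also express. Lower ones with the smallest p were Trat1 (-2.31 ± 0.42), an adaptor bound to the receptor complex, Rasgrp1 (-1.20 ± 0.16), which activates Ras, and the kinase Prkcq (-0.66 ± 0.10). Among 14 transcription factors of T and innate lymphoid cells, 2 were higher and 7 lower (median -0.60). Among the lower ones, Ikzf2, which encodes Helios, gave -1.93 ± 0.20 and Rora, which innate lymphoid cells need, gave -1.31 ± 0.14. Rora is also expressed outside lymphocytes. Stat4 (1.41 ± 0.49) and Tcf7 (0.38 ± 0.14) were higher, but both calls were fragile. That of Stat4 was lost without DPCP replicate 2 (0.89, adjusted p = 0.174), DPCP replicate 3 (1.53, 0.0610), control replicate 2 (1.45, 0.0930) or control replicate 3 (1.11, 0.119). Tcf7 was not called without any one of 5 libraries (all but DPCP replicate 2), at log2 fold changes of 0.27 to 0.43 and adjusted p of 0.0741 to 0.142. Nor was it called with library totals alone (0.31, 0.116), upper-quartile factors (0.35, 0.0662), no filter (0.39, 0.0580) or the replicate block (0.38, 0.0501).

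Homing receptors moved in both directions, 5 higher and 3 lower of 13 tested (median 0.04). Among the higher ones, Ccr7, which guides cells to lymph nodes, gave 1.74 ± 0.26, and S1pr1, the receptor for exit from lymph nodes, which endothelium also carries, gave 0.84 ± 0.16. The lower ones were Ccr4, a skin-homing chemokine receptor, at -2.57 ± 0.21, Itgae, the integrin CD103 that binds epithelium, at -1.12 ± 0.17 and Cxcr6 at -1.08 ± 0.35. The Cxcr6 call was lost without DPCP replicate 1 (-0.98, adjusted p = 0.0891), DPCP replicate 3 (-0.90, 0.105), control replicate 1 (-0.71, 0.134) or control replicate 3 (-1.12, 0.0628), and with the replicate block (-1.05, 0.0511).

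Of 10 tested costimulatory and inhibitory receptors, 2 were higher and 1 lower (median -0.13). Tnfrsf9, the activation receptor 4-1BB, gave 1.42 ± 0.26, and Cd96, an inhibitory receptor of NK and T cells, -2.17 ± 0.26. Pdcd1, the inhibitory receptor PD-1, gave 1.39 ± 0.47, a call that was lost by DESeq2 (1.41, adjusted p = 0.0693) and without any one of 5 libraries (all but control replicate 1), at 1.03 to 1.46 with adjusted p of 0.0669 to 0.0901. Among 7 tested cytokines, Tnfsf14 (3.08 ± 0.42) and Ltb (1.6 ± 0.26), both of the TNF family, were higher and Xcl1 (-1.75 ± 0.41), a chemokine of NK and T cells, was lower (median 0.75). Whether the Tnfsf14 and Ltb reads came from lymphocytes was not tested. Il9 had no counts in any library. Of 7 tested genes of NK receptors and further granule proteins, none was higher and 4 were lower (median -0.94), and Gzmd, Gzme, Gzmf, Gzmg and Gzmk had no counts in any library. Ctsw, a granule protease, gave -1.89 ± 0.40, and -2.50 without DPCP replicate 1. The NK receptors Klrc1 (-1.13 ± 0.32) and Klrk1 (-0.94 ± 0.33) were called lower but lost the call without DPCP replicate 3 (-0.99, adjusted p = 0.0640 for Klrc1; -0.70, 0.119 for Klrk1) or control replicate 1 (-0.82, 0.0784; -0.67, 0.160). Klrk1 also lost it without DPCP replicate 2 (-1.06, 0.0680) or control replicate 2 (-0.88, 0.118).

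Receptors of innate lymphoid cells gave 2 higher and 2 lower of 5 tested (median -0.72). Il1rl1, the receptor for interleukin 33, which mast cells also carry, gave 2.05 ± 0.27, and Crlf2, part of the receptor for TSLP, 0.92 ± 0.17. Il12rb2, a chain of the interleukin 12 receptor, gave -2.01 ± 0.27 and Il17rb -1.27 ± 0.19. In the B and plasma cell list, 2 of 16 tested genes were higher and 5 lower (median 0.18). The lower ones with the smallest p were Ighg1 (-3.92 ± 0.66), the constant region of IgG1, which gave -6.09 without DPCP replicate 2, Bank1 (-1.40 ± 0.27), a B cell scaffold protein, and the adaptor Blnk (-0.60 ± 0.09). Blnk stood at 13.1 TPM in DPCP skin and 22.9 TPM in control skin, where Cd79a stood at 0.412 and 0.725 TPM. The cells that gave the Blnk reads were not tested. Sdc1 (0.68 ± 0.12) and Prdm1 (0.33 ± 0.11) mark plasma cells but are also made by keratinocytes, and the Prdm1 call was lost without DPCP replicate 2 (0.26, adjusted p = 0.133), DPCP replicate 3 (0.31, 0.0967), control replicate 2 (0.25, 0.115) or control replicate 3 (0.34, 0.0831), and with library totals alone (0.25, 0.0859), upper-quartile factors (0.30, 0.0554) or the replicate block (0.33, 0.0622).

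**Figure D5:**
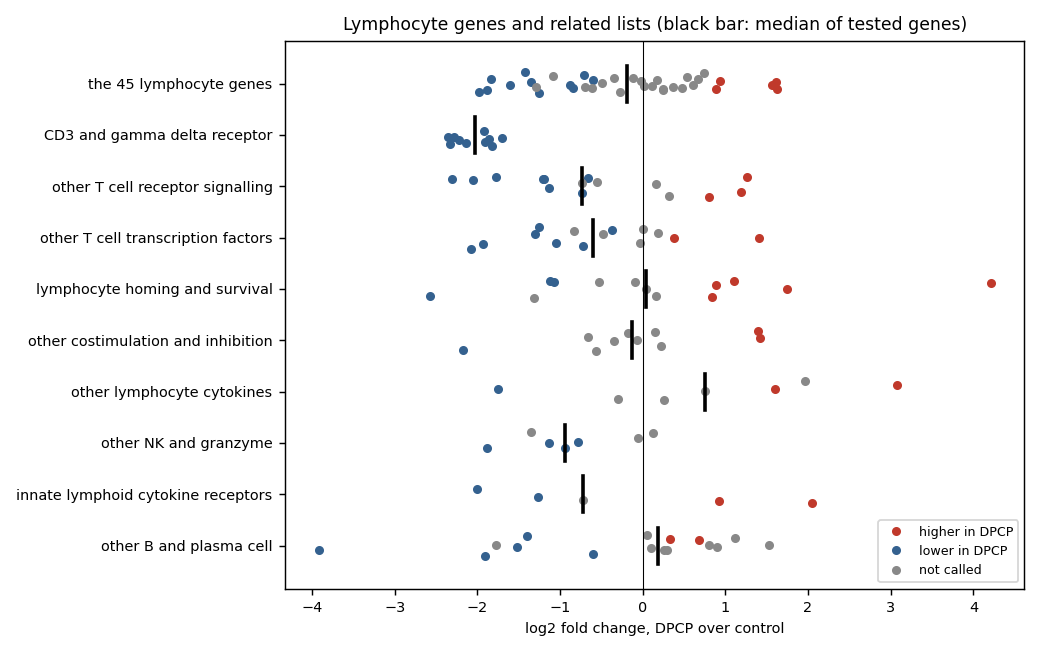
Log2 fold change (DPCP over control) of every tested gene in the 9 related lists and in the listed lymphocyte genes, with colours for the call and a black bar at each median. The CD3 and gamma delta list lies wholly below 0, with a median of -2.03, while the 36 tested of the 45 listed genes spread to both sides, with a median of -0.19.

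Markers of other cells differed between the same libraries, in which 22.8% of all tested genes were called higher and 23.3% lower. Of 4 genes of all leukocytes, 3 were higher, with a summed level of 425 to 637 CPM in DPCP skin and 215 to 323 CPM in control skin. Neutrophil genes summed to 493 to 1293 CPM in DPCP skin and 41.3 to 49.6 CPM in control skin, with all 6 tested of 7 higher and Ly6g, at 4, 47 and 9 counts in DPCP skin and 0, 0 and 1 in control skin, not tested. Macrophage and monocyte genes summed to 1491 to 2441 CPM in DPCP skin and 687 to 1135 CPM in control skin, with 5 of 7 higher. Mast cell genes summed to 352 to 452 CPM and 245 to 285 CPM in the same order, with 4 of 5 higher, and endothelial genes to 270 to 333 CPM and 139 to 167 CPM, with 3 of 4 higher. Dendritic and Langerhans cell genes summed to 34.6 to 45.5 CPM in DPCP skin and 60.5 to 76.6 CPM in control skin, with 3 of 6 lower, and skeletal muscle genes to 2235 to 4466 CPM and 8508 to 11079 CPM, with all 5 lower. The part of these cells in the values of the lymphocyte genes was not tested.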

How the data were processed

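Polyadenylated RNA of whole dorsal mouse skin was measured in 6 libraries, 3 DPCP and 3 control, with 150-base paired reads from a strand-preserving kit, per the labels. The deposited values were raw counts per gene, which the authors made with featureCounts 1.6.2 and release 102 of Ensembl's GRCm38 annotation, per the file headers. That command set no option for strand, pairs, several alignments or several genes, so mates were counted singly on either strand and ambiguous reads were dropped. The submitters' processing notes also name the build mm10 and the tools HISAT2 2.2.1, Trimmomatic 0.36, DESeq2 1.34.0 and StringTie 2.2.1. Of the 45 genes, 11 shared exon bases with another gene (Cd27, Cd7, Lck, Lat, Foxp3, Eomes, Klrb1c, Ifng, Pax5, Cd22 and Mzb1), and sense and antisense reads cannot be told apart, so these levels are uncertain.

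Symbols came from GENCODE M21, on that build, which matched 55141 of 55487 identifiers. The counts were fitted in R 4.3.3 by edgeR 4.0.16 (glmQLFit and glmQLFTest, its quasi-likelihood test), with TMM factors (0.942 to 1.04), filterByExpr defaults and Benjamini-Hochberg adjustment over 18259 tested genes, of which 4163 were called higher and 4254 lower at an adjusted p under 0.05. Standard errors were computed as the unshrunken log2 fold change over the root of its F statistic. CPM values used TMM-scaled library sizes and TPM used the deposited gene lengths. The procedure was tested on simulated data. Every listed gene is named, and from each related list up to 3 called genes with the smallest p in each direction, some of which are not reported here. Ratios of counts are descriptions with no test. The members and the lists were chosen with earlier results of these data known. Alternatives were DESeq2 1.42.0, other scaling, other filters, the replicate block and leaving out each library. All library pairs differed beyond sampling noise (lowest chi-square per gene 19.8). The first principal component of log2 CPM held 77.0% of the variance and parted the groups.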

Additional observations from a re-analysis of the deposited data

How the results depend on the processing

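Over 13 alternatives to the processing, 12 of the 16 called lymphocyte genes kept their call under each, and 17 of the 20 uncalled ones were called under none. The exceptions, Cd6, Gzmb, Ncr1, Ighm, Thy1, Klrb1c and Gzma, have their values beside the results. The number called higher was 3 without DPCP replicate 2 and 3 to 6 over the runs that left out 1 library, and the number called lower was 9 to 14. Such runs could test listed genes that the main fit did not (39 were tested without DPCP replicate 1), and the counts include these. The number of listed genes tested ran from 25 with a minimum of 1 CPM in a whole group to 45 with no filter, by construction of the filter. Over all genes, 3492 to 4361 were called higher and 3430 to 4858 lower.

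Changes of sign occurred only in 3 uncalled genes near 0, and their cause was not tested. Cd8a gave -0.27 to 0.26 over the runs without 1 library, -0.07 with library totals alone, -0.02 with upper-quartile factors, -0.01 with the replicate block, and it was negative without DPCP replicate 2 (-0.27) or control replicate 3 (-0.24). Klrd1 gave -0.38 to 0.25 over those runs, with 0.04 without DPCP replicate 1 and 0.25 without control replicate 1. Cd28 gave -0.31 to 0.20, with 0.15 without DPCP replicate 2, 0.07 without DPCP replicate 3, 0.13 without control replicate 1 and 0.20 without control replicate 2.

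Replicate numbers were shared by the labels of both groups. Same-numbered libraries deviated together only weakly (correlations of 0.0456, 0.0262 and 0.112), and not every DPCP library correlated best with its own number. The numbers were therefore not taken as pairs in the main fit. On the second principal component, however, replicate 3 of DPCP (-27.2) and of control (-26.7) lay together, with all other libraries at 7.85 to 19.4. An effect shared by libraries of the same number was not tested beyond the replicate block. With the replicate block, 5 listed genes were called higher and 12 lower, and over all genes 4260 and 4241. Depth limits the 9 untested genes, which had 0 to 21 counts in a library.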

Other observations

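The immunoglobulin constant region genes called in DPCP skin, Ighm, Ighg1 and Ighd, were lower, and Igkc and Igha were not called. The Ighm call was lost in several alternatives, as given above. Ighd, the constant region of IgD, gave -1.52 ± 0.42 (adjusted p = 0.0163 by edgeR's quasi-likelihood test), a call lost without control replicate 2. Ighg2b was not tested and had 7, 4 and 46 counts in DPCP skin and 3, 2 and 0 in control skin. Ighg1, the constant region of IgG1, had 3, 26 and 1 counts in DPCP skin and 153, 113 and 141 in control skin, and DPCP replicate 2 held most of the reads of its group (log2 fold change -3.92 ± 0.66, adjusted p = 0.00167 by edgeR's quasi-likelihood test). Igkc, the kappa light chain, measured 2.86, 9.85 and 7.34 CPM in DPCP skin and 5.45, 1.80 and 2.09 CPM in control skin, with overlapping groups, and was not called (log2 fold change 1.11 ± 0.52, adjusted p = 0.110 by edgeR's quasi-likelihood test). It was called higher with no count filter, without DPCP replicate 1 and without control replicate 1, and over 13 alternatives its log2 fold change was 0.71 to 1.79 and its adjusted p 0.0143 to 0.336. Igha, the constant region of IgA, measured 3.90, 10.9 and 5.35 CPM in DPCP skin and 4.05, 3.17 and 3.61 CPM in control skin and was not called (log2 fold change 0.90 ± 0.35, adjusted p = 0.0650). It was called higher by DESeq2, with no count filter and without DPCP replicate 1, with log2 fold changes of 0.35 to 1.18 and adjusted p of 0.00958 to 0.248 over the 13 alternatives. For both Igkc and Igha the DPCP library with the most reads was replicate 2. Ighm counts were 24.9, 5.31 and 3.88 times those of Igkc in the DPCP libraries and 21.1, 51.0 and 32.9 times those in the control libraries. Per count of Cd79a, Ighm had 412, 239 and 88.4 counts in DPCP skin and 241, 394 and 177 in control skin, with overlapping groups. These genes were chosen after their values were seen.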
